A study of Mus musculus with 32 samples.

Results

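Thyroid hormone action in the liver was followed through 4 genes, Dio1, Thra, Thrb and Slc16a10, which were taken by symbol from the 55471 genes of the count table. All 4 were found and all 4 passed the filter on low counts that left 14456 genes for testing. They were measured by sequencing of polyadenylated RNA in the livers of 32 male C3H/HeNCrl mice, all on a high fat diet (HFD). By the labels, 16 mice lived under a short light (SL) and 16 under a long light (LL) photoperiod, and 4 mice of each were sampled at zeitgeber time (ZT, hours on the light schedule) 0, 6, 12 and 18. The 8 groups were labelled alike in all but photoperiod and time, with 4 separate mice in each (n = 4). The hours of light in SL and LL, the event that sets ZT0, the age of the mice and the length of exposure are not stated in the labels used here. No group on another diet was analysed here, so nothing below separates the response to light from the diet that all mice shared.

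The thyroid gland releases mostly the prohormone thyroxine (T4), which enters cells through membrane transporters and becomes active when a deiodinase removes an outer-ring iodine to give triiodothyronine (T3). T3 binds the nuclear receptors encoded by Thra and Thrb, which sit on DNA with retinoid X receptors and exchange corepressors for coactivators when hormone is bound. In the liver the hormone acts mainly through the beta receptor, and it is known for its control of lipogenesis and bile acid synthesis, with Dio1 itself among its induced genes.

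Dio1, the type 1 deiodinase (ENSMUSG00000034785), lies on the minus strand at chr4:107291465-107307169 of GRCm38. The enzyme carries selenocysteine in its active site, which is encoded by a UGA codon that would otherwise stop translation. The codon is shown because the selenoprotein genes described further on serve its reading as selenocysteine. The coding stretch of transcript Dio1-201 at chr4:107297673-107297729 is given 5′ to 3′ on the minus strand, with the selenocysteine codon in capitals.

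Dio1-201: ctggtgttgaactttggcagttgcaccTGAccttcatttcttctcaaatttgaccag

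Thra, the alpha receptor (ENSMUSG00000058756), lies on the plus strand at chr11:98740638-98769006. Its 3′ end runs into the clock gene Nr1d1 (REV-ERB alpha, a repressor of Arntl), which lies on the minus strand at chr11:98767932-98775333. The 2 genes share 1075 bases, of which 263 are exonic in both and make up 5.7% of the 4614 exon bases of Thra. The last exon of transcript Thra-201, the form whose protein differs at its end and does not bind hormone, holds the shared exonic bases, and a stretch of it codes for both proteins. That stretch is shown because every Thra value below depends on which gene reads from it were given to. It stands at the start of chr11:98768223-98768449, read 5′ to 3′ on the plus strand, with the 197 bases that code on both strands in capitals.

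Thra-201: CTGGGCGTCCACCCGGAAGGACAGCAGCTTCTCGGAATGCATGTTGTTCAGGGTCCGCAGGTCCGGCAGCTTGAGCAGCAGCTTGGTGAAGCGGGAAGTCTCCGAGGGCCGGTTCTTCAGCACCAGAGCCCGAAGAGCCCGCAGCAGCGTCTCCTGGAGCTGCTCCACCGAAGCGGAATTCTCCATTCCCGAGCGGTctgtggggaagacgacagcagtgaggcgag

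The library kit was stranded, but the strand setting of the counting is not given in the sources used here, so reads from this stretch may have gone to Thra, to Nr1d1 or to neither. Thrb, the beta receptor (ENSMUSG00000021779), lies on the plus strand at chr14:17660261-18038090. Slc16a10 (ENSMUSG00000019838) lies on the minus strand at chr10:40033532-40142258 and encodes the monocarboxylate transporter family member MCT10, which carries T3, T4 and aromatic amino acids across the membrane. Small antisense or noncoding genes lie within Thrb (Gm48320, Gm24140 and Gm48321) and Slc16a10 (Gm25613), but they share 0 exon bases with them and held 4, 2, 19 and 1 counts over all libraries.

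Libraries held 9095615 to 27462776 counts, with a median of 15665632.5. Mean correlation with group mates was 0.981 to 0.989, except for LL ZT12 replicate 3, at 0.969. All 6 hepatocyte markers were abundant, with summed levels of 95800 to 126000 CPM (counts scaled to library size). The sum was mostly Alb (mean 92200 CPM) and says little of the other markers. Cps1 ran from 1780 to 5750 CPM and Apoa1 from 7670 to 18000 CPM. The lowest Cps1 and the highest Apoa1 were both in the LL ZT12 group. Summed skeletal muscle markers ran from 0.524 to 204 CPM and were highest in LL ZT18 replicate 3 (204), LL ZT0 replicate 2 (96.3), LL ZT18 replicate 2 (60.1) and SL ZT18 replicate 4 (32.1). The other libraries lay at or below 27.4 CPM. Summed Kupffer cell markers lay at 208 to 434 CPM and summed endothelial markers at 200 to 336 CPM. In bulk liver RNA, fewer cells of a type and less RNA per cell cannot be told apart.

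At the level of the gene, all 4 transcripts were well covered. Over the 32 livers, Slc16a10 stood at 78.4 ± 11.2 CPM (SD, n = 32), Thrb at 68.0 ± 9.28, Dio1 at 60.3 ± 33.6 and Thra at 15.3 ± 3.62. Thra rested on the fewest reads, 130 to 650 per library, against 298 to 2749 for Dio1. Per kilobase of exon the order changed, with Dio1 highest at a mean of 30.6 RPKM, then Slc16a10 at 10.7, Thrb at 9.19 and Thra at 3.32. The levels of Slc16a10 and Thrb overlapped between livers on this scale. Both were measured in the same livers, and their order within livers was not tested. The other deiodinases were nearly absent: Dio2, which also activates T4, had 4 counts in all 32 libraries together, and Dio3, which inactivates the hormones, had 39. The plot of levels by time of day gives all mice.

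**Figure D1:**
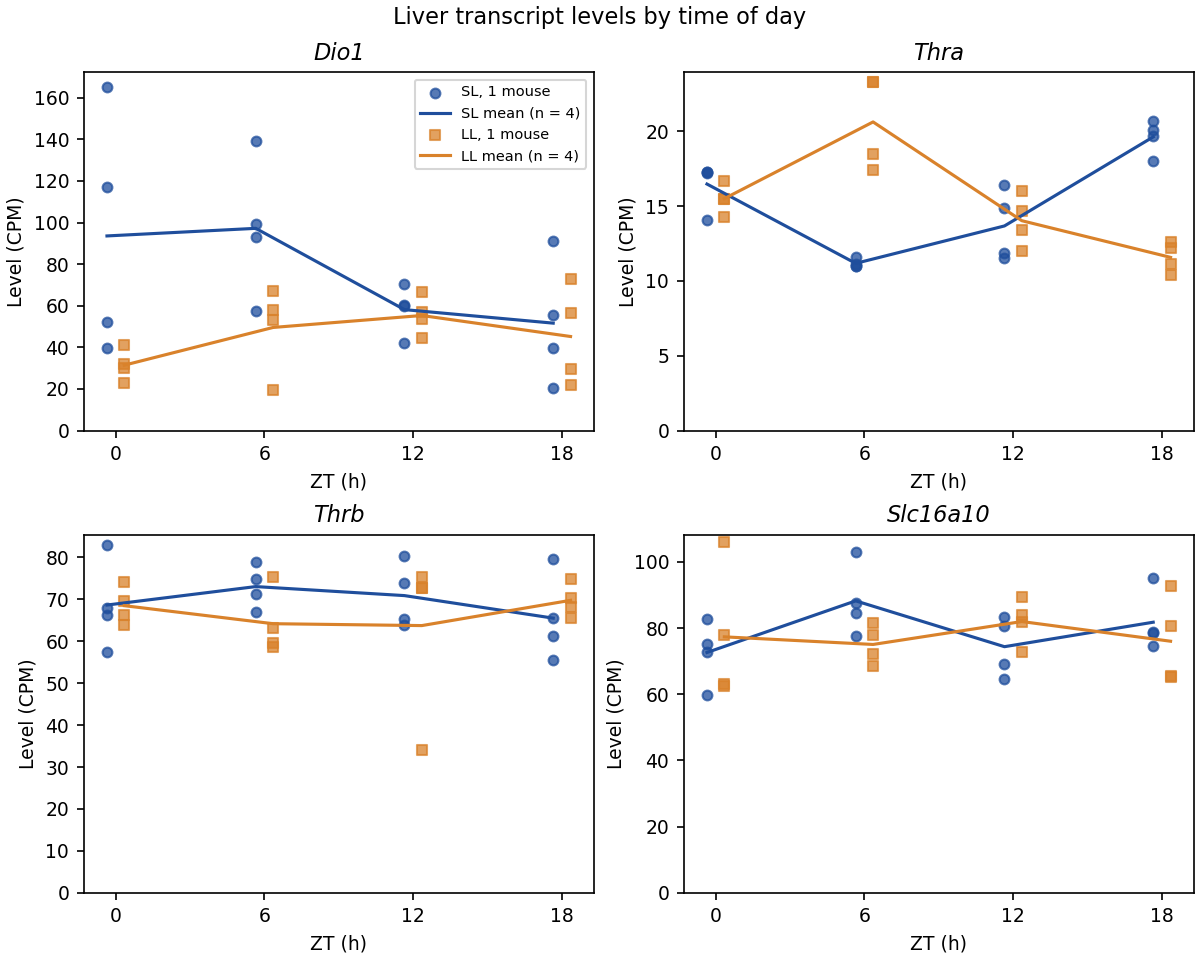
Levels of the 4 genes in CPM (vertical axis, from 0) against zeitgeber time in hours; circles are single SL mice, squares single LL mice, and lines join the means of 4 mice. Thra crosses over between photoperiods, with its highest mean at ZT18 in SL (19.6) and at ZT6 in LL (20.6), Dio1 scatters widely and is highest in SL at ZT0 and ZT6, and Thrb and Slc16a10 stay nearly level.

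Dio1 was higher in SL than in LL at ZT0, by 2.98-fold, and its scatter between mice was the widest of the 4 genes. The question addressed by each comparison of SL with LL is whether the gene's level depends on the photoperiod at that time of day. At ZT0 the SL mice had 39.9, 52.4, 165 and 117 CPM, and the LL mice 31.8, 30, 41.1 and 22.9 CPM. In SL 3 values lay above every LL value, but the lowest SL mouse (39.9) lay below the highest LL mouse (41.1), so the groups overlapped. The difference was 1.58 ± 0.43 (log2, SE; 95% interval 0.70 to 2.45) with an adjusted p of 0.0137 by the quasi-likelihood F-test of edgeR, which called 11% of all tested genes at ZT0, with 6.07% of all tested genes called higher in SL. The call rested on single mice: without SL ZT0 replicate 3, the mouse at 165 CPM, the log2 difference was 1.15 with an adjusted p of 0.0963, and without LL ZT0 replicate 4, at 22.9 CPM, it was 1.45 with an adjusted p of 0.0525 in the same edgeR test.

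At ZT6 Dio1 stood at 93.1, 57.4, 99.4 and 139 CPM in SL and at 67.3, 58.1, 19.7 and 53.2 CPM in LL. There, 3 SL mice were above all LL mice and 1 was within their range. The log2 difference of 0.98 ± 0.42 (SE) did not pass the edgeR test (adjusted p = 0.113), although without the filter on low counts, which brought in genes with very few reads, it was 1 on the log2 scale with an adjusted p of 0.026. At ZT12 the SL mice had 70.3, 41.9, 60.4 and 60.0 CPM and the LL mice 53.7, 44.3, 56.9 and 66.4 CPM, a log2 difference of 0.07 ± 0.41 (SE). At ZT18 the SL mice had 20.4, 55.7, 39.5 and 91.0 CPM and the LL mice 29.8, 21.8, 72.9 and 56.4 CPM, a log2 difference of 0.19 ± 0.42 (SE). The ranges of the photoperiods largely coincided at these 2 times, and the intervals of the difference, -0.78 to 0.92 at ZT12 and -0.66 to 1.04 at ZT18 on the log2 scale, leave differences of up to 1.89-fold and 2.06-fold higher in SL possible.

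Averaged over the 4 times, Dio1 was 75.1 ± 39.5 CPM in the 16 SL mice and 45.4 ± 17.6 CPM in the 16 LL mice (SD). The log2 difference of the mean of the 4 times was 0.71 ± 0.21 (SE; 95% interval 0.28 to 1.13), with an unadjusted p of 0.00204 that ranked 33 of 14456 genes and an adjusted p of 0.865 by edgeR. No gene passed that comparison (0% called), while 730 genes, or 5.05%, had an unadjusted p under 0.05 and DESeq2 called 6 genes. Without the filter on low counts, edgeR called 9 genes there, and Dio1 had a log2 difference of 0.70 and an adjusted p of 0.0437. The estimate itself moved little, from 0.60 to 0.78 when each library was left out in turn.

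Whether the photoperiod difference of Dio1 changed over the day was less certain. The photoperiod by ZT interaction had an adjusted p of 0.124 by edgeR and the 24 h rhythm difference one of 0.0663, in tests that called 32.7% and 36% of all genes. Dio1 did not pass the test for time of day within SL (adjusted p = 0.215 by edgeR) or within LL (0.456), where 19.1% and 18.3% of genes were called. A 24 h cosine wave through the group means had a log2 amplitude of 0.57 ± 0.21 (SE) with its peak at 3.55 ± 1.38 h in SL and of 0.42 ± 0.21 with its peak at 11.4 ± 1.91 h in LL. These amplitudes lay above those of 94.5% of tested genes in SL and 89% in LL, which in a gene with this scatter describes the group means and not a called rhythm. The rhythm difference passed the threshold when any 1 of 4 libraries was left out: SL ZT18 replicate 4 (adjusted p = 0.0281 by edgeR), SL ZT0 replicate 1 (0.0292), SL ZT0 replicate 2 (0.0424) or LL ZT18 replicate 2 (0.0426). Without the filter on low counts the interaction (0.0155), the rhythm difference (0.00637) and time of day in SL (0.0456) also passed.

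Dio1 scattered more between mice of a group than the other genes did. The pooled SD of log2 CPM within groups was 0.669 for Dio1, against 0.245 for Thrb, 0.206 for Slc16a10 and 0.156 for Thra. Its values ran from 20.4 to 91.0 CPM among the 4 SL mice at ZT18 and from 39.9 to 165 CPM among those at ZT0, while the LL mice at ZT0 and ZT12 lay within 22.9 to 41.1 and 44.3 to 66.4 CPM. Without the 4 libraries highest in muscle markers, the log2 difference of Dio1 was 1.55 at ZT0 and turned from 0.19 to -0.17 at ZT18.

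Thra was the member with a clear time-of-day pattern, and the pattern was turned around between photoperiods. In SL it was lowest at ZT6 and highest at ZT18, and in LL it was highest at ZT6 and lowest at ZT18. At ZT6 the SL mice had 11.6, 11, 11.1 and 11 CPM, and the LL mice 17.4, 18.5, 23.3 and 23.3 CPM. Every SL mouse was below every LL mouse. The groups did not overlap for 20.4% of all tested genes at this time. Thra was 1.85-fold lower in SL, a log2 difference of -0.89 ± 0.11 (SE; 95% interval -1.12 to -0.67) with an adjusted p of 9.09e-07 by edgeR, which called 15.3% of genes at ZT6 and 8.38% lower in SL.

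At ZT18 the order was the opposite. The SL mice had 19.7, 20.1, 20.7 and 18.0 CPM, and the LL mice 10.4, 12.6, 11.1 and 12.2 CPM. Again the groups did not overlap, which held for 17.5% of genes, but now every SL mouse was the higher. The Thra difference of 1.69-fold, 0.76 ± 0.11 on the log2 scale (SE; 95% interval 0.53 to 0.99), had an adjusted p of 2.54e-05 by edgeR, with 9.21% of genes called at ZT18 and 4.82% called higher in SL. Of the 8 mice at ZT18, 3 were among the 4 highest in muscle markers, and without those 4 libraries the log2 difference of Thra was 0.82 (adjusted p = 0.00223 by edgeR).

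At the other 2 times Thra showed no such gap. At ZT0 the SL mice had 17.2, 17.3, 14.1 and 17.3 CPM and the LL mice 15.5, 15.5, 14.3 and 16.7 CPM, a log2 difference of 0.09 ± 0.11 (SE; 95% interval -0.15 to 0.32). At ZT12 the SL mice had 11.9, 16.4, 11.5 and 14.9 CPM and the LL mice 13.4, 16, 14.7 and 12 CPM, a log2 difference of -0.03 ± 0.11 (SE; 95% interval -0.26 to 0.20). The groups overlapped at both times. Over the day the differences cancelled, and the mean of the 4 times differed by only -0.02 ± 0.06 on the log2 scale (95% interval -0.13 to 0.10, or 0.912- to 1.07-fold).

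**Figure D2:**
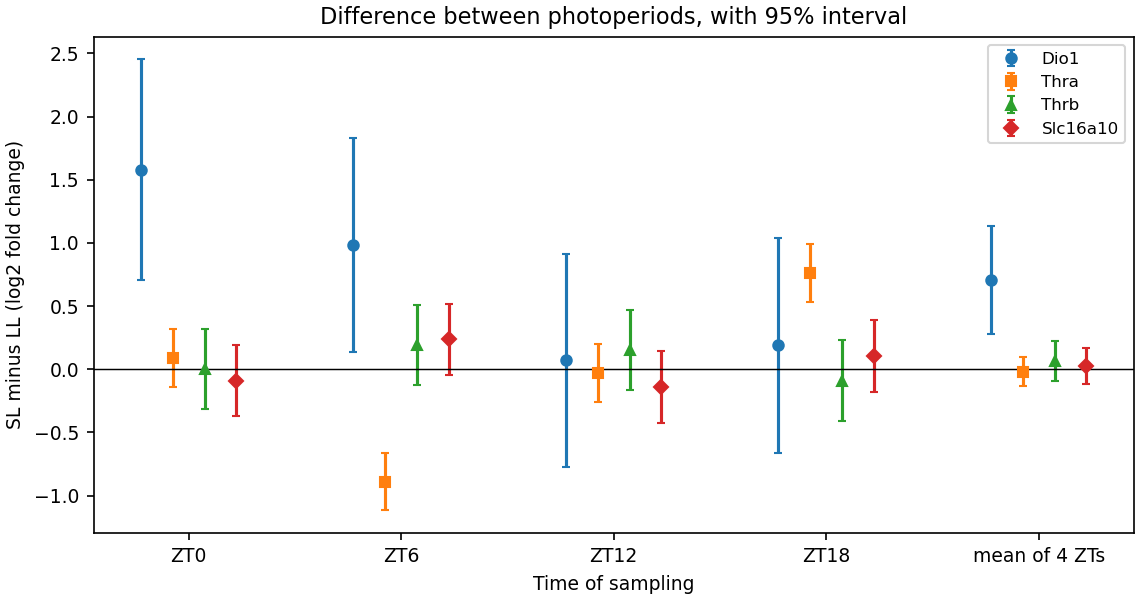
SL minus LL difference of each gene as a log2 fold change (vertical axis) at each time and for the mean of the 4 times; points are edgeR estimates from 4 mice per group and bars are 95% intervals. Thra lies below 0 at ZT6 (-0.89) and above 0 at ZT18 (0.76), Dio1 lies above 0 at ZT0 (1.58), and all intervals of Thrb and Slc16a10 hold 0.

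The photoperiod by ZT interaction of Thra had an adjusted p of 2.16e-08 and the 24 h rhythm difference one of 6.19e-09 by edgeR. Thra also changed with time of day within SL (adjusted p = 1.43e-05 by edgeR) and within LL (1.16e-05). All of these calls, and those at ZT6 and ZT18, held when any library was left out and in the other fits and scalings that were run. Fitted waves had equal amplitudes, 0.43 ± 0.06 in SL and 0.43 ± 0.06 in LL (log2, SE), a peak 1.81-fold above the trough in both, and both larger than in 89.6% of tested genes. The SL wave peaked at 19.2 ± 0.51 h and the LL wave at 5.34 ± 0.50 h (SE), so on the ZT scale the SL peak came 10.1 h earlier, counted the shorter way round. Samples 6 h apart cannot show a sharper peak or another period.

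Step by step, within SL, Thra fell by 0.56 ± 0.11 (log2, SE) from ZT0 to ZT6 (adjusted p = 0.00161 by edgeR) and stood 0.81 ± 0.11 higher at ZT18 than at ZT6 (3.67e-06). Of that climb, 0.52 ± 0.11 came between ZT12 and ZT18 (adjusted p = 0.0165 by edgeR), a step at which only 0.699% of genes were called. In LL it rose by 0.42 ± 0.11 from ZT0 to ZT6 (adjusted p = 0.0453 by edgeR), a step with 1.56% of genes called, and fell by 0.57 ± 0.11 from ZT6 to ZT12 (0.000636). At ZT18 in LL it stood below ZT0 by 1.34-fold (adjusted p = 0.0247 by edgeR) and below ZT6 by 1.79-fold (5.69e-06). The SL steps from ZT0 to ZT6 and from ZT6 to ZT18 called 8.16% and 15.1% of genes, and the LL comparisons of ZT12 with ZT6, ZT18 with ZT0 and ZT18 with ZT6 called 9.75%, 4.88% and 10.8%.

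With the LL times taken 12 h later, the patterns of Thra lay close. SL at ZT6 (11.2 ± 0.318 CPM, SD) stood beside LL at ZT18 (11.6 ± 0.998), and SL at ZT18 (19.6 ± 1.14) beside LL at ZT6 (20.6 ± 3.12). SL at ZT0 (16.5 ± 1.56) stood beside LL at ZT12 (14 ± 1.74), and SL at ZT12 (13.7 ± 2.40) beside LL at ZT0 (15.5 ± 0.969). The interaction recomputed on these offset times had an adjusted p of 0.577 for Thra by edgeR, in a test that called 0.519% of all genes. The adjusted p does not show that the patterns were equal. The offset was chosen with earlier results known on how far apart the clock waves of the photoperiods lay. The closeness after it is a description.

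Because of the shared bases, the values of Nr1d1 are given beside those of Thra. Nr1d1 held 21524 counts over all libraries and Thra 8083. In SL, Nr1d1 stood at 98.8 ± 24.1 CPM at ZT0, 12.5 ± 3.07 at ZT6, 3.59 ± 1.42 at ZT12 and 49.0 ± 21.7 at ZT18 (SD, n = 4). In LL it stood at 8.99 ± 4.23, 87.1 ± 18.2, 49.3 ± 13.4 and 7.21 ± 2.07 CPM at the same times. Its waves, with log2 amplitudes of 2.59 and 2.18, peaked at 22.5 h under short light and at 8.29 h under long light, later than those of Thra by the wave fit in both photoperiods. The genes did not run in parallel: in SL, Nr1d1 fell between ZT0 and ZT12 from 98.8 to 3.59 CPM while Thra went from 16.5 to 13.7 CPM, and Thra was lowest at ZT6 where Nr1d1 was not. In LL both were highest at ZT6 and lowest at ZT18. Pearson's r over the 8 group means of log2 CPM was 0.674. How many of the reads counted for Thra came from the shared stretch was not tested, since the counts are per gene.

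**Figure D3:**
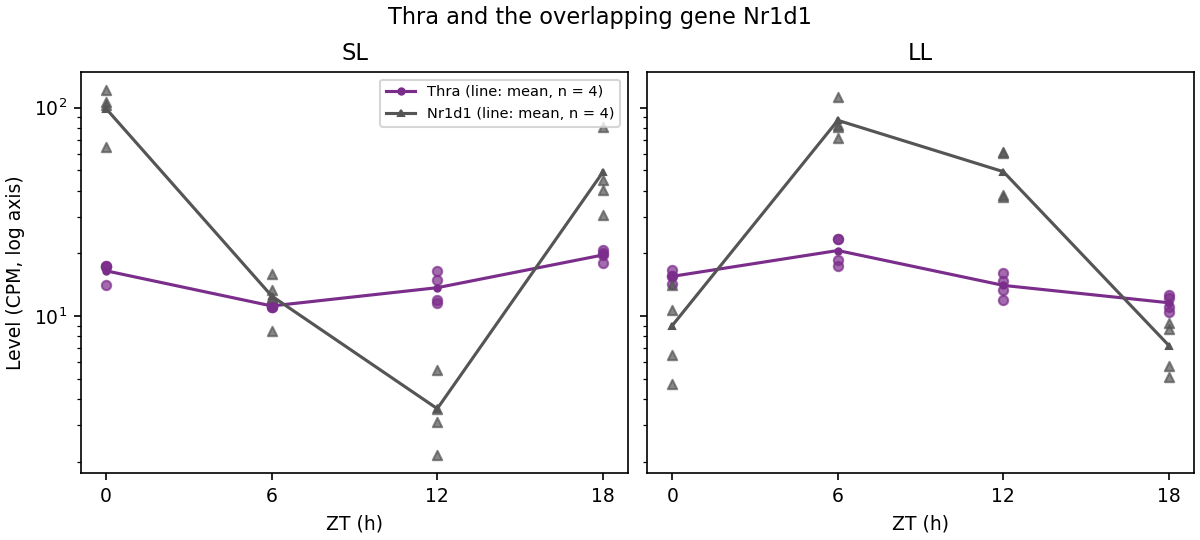
Levels of Thra (circles) and Nr1d1 (triangles) in CPM on a log axis against zeitgeber time in hours, SL on the left and LL on the right; points are single mice and lines join means of 4. Nr1d1 ranges over a far wider span, from a mean of 3.59 to 98.8 in SL, than Thra, from 11.2 to 19.6, and in SL the lowest means fall at different times.

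Thrb, the main receptor of hepatocytes, was nearly level over the day and between photoperiods. Its means in SL were 68.6 ± 10.6, 73.0 ± 5.14, 70.9 ± 7.75 and 65.5 ± 10.2 CPM at ZT0, ZT6, ZT12 and ZT18 (SD, n = 4). In LL they were 68.5 ± 4.47, 64.2 ± 7.67, 63.7 ± 19.8 and 69.8 ± 3.91 CPM. The ranges of SL and LL overlapped at all 4 times. The low and scattered LL ZT12 group came from a single liver, replicate 3, at 34.1 CPM, while its group mates had 72.8, 72.7 and 75.3 CPM. That library was also the one that correlated least with its group mates.

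No test of Thrb was called. The log2 difference of the mean of the 4 times was 0.06 ± 0.08 (SE; 95% interval -0.10 to 0.22, or 0.936- to 1.17-fold), which leaves room for only a small change in mean level. The intervals at single times ran from -0.41 at the lowest (ZT18) to 0.51 at the highest (ZT6) on the log2 scale. The interaction (adjusted p = 0.667 by edgeR), time of day in SL (0.885) and time of day in LL (0.852) did not pass. The fitted wave amplitudes, 0.08 ± 0.08 in both photoperiods (log2, SE), were about as large as their errors and lay above those of 24.9% of genes in SL and 19.9% in LL, so no peak time is given. Without LL ZT12 replicate 3 the ZT12 difference went from 0.15 to -0.05.

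As Thrb was level and Thra was not, the ratio of the receptor transcripts followed Thra. Per kilobase of exon, Thrb stood 2.93 ± 0.841 times as high as Thra over the 32 livers (SD). In SL the ratio was 2.59 ± 0.273 at ZT0, 4.07 ± 0.338 at ZT6, 3.28 ± 0.495 at ZT12 and 2.08 ± 0.291 at ZT18. In LL it was 2.76 ± 0.136, 2 ± 0.534, 2.89 ± 1.06 and 3.78 ± 0.423. The LL ZT12 ratios ran from 1.45 to 3.91, in the group that held the liver with Thrb at 34.1 CPM (replicate 3). At ZT6 the SL livers had ratios of 3.79 to 4.50 and the LL livers of 1.57 to 2.7, and at ZT18 the SL livers had 1.90 to 2.52 and the LL livers 3.35 to 4.19. The ratio was formed from the values already compared, so it was not tested again, and it concerns transcripts of all forms of each gene, including those of Thra that do not encode a hormone-binding receptor.

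**Figure D4:**
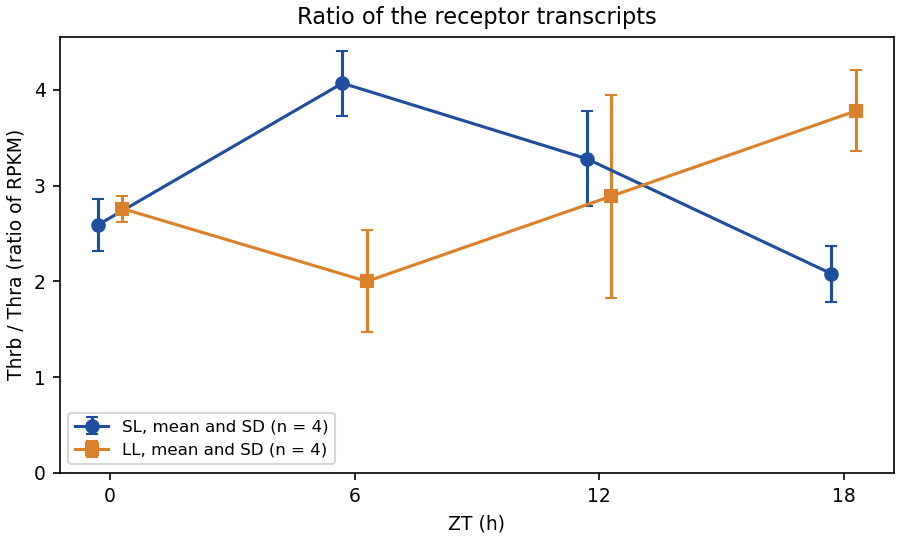
Ratio of Thrb to Thra per kilobase of exon (vertical axis, from 0) against zeitgeber time in hours; circles are SL and squares LL, as means of 4 mice with SD. The ratio is highest at ZT6 in SL (4.07) and at ZT18 in LL (3.78) and lies near 2 at ZT18 in SL (2.08) and at ZT6 in LL (2).

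Slc16a10, the transporter, was the most abundant of the 4 by read count and showed no called difference. Its means in SL were 72.7 ± 9.57, 88.4 ± 10.9, 74.4 ± 9.02 and 81.8 ± 9.18 CPM at ZT0, ZT6, ZT12 and ZT18, and in LL 77.3 ± 20.1, 75.1 ± 5.91, 82.0 ± 6.86 and 76.0 ± 13.3 CPM (SD, n = 4). The widest gap was at ZT6, where the SL mice had 84.7, 103, 87.7 and 77.6 CPM and the LL mice 81.7, 72.1, 68.5 and 78.0 CPM. There, 3 SL mice lay above all LL mice and 1 did not. The log2 difference of 0.24 ± 0.14 (SE; 95% interval -0.05 to 0.52) had an adjusted p of 0.283 by edgeR. The mean of the 4 times differed by 0.03 ± 0.07 (log2, SE; 95% interval -0.11 to 0.17, or 0.924- to 1.12-fold). The interaction (adjusted p = 0.341 by edgeR) and time of day in SL (0.378) and LL (0.866) did not pass, and the wave amplitudes of 0.06 and 0.04 were within their SE of 0.07. The LL ZT0 group held 1 high mouse, replicate 2 at 106 CPM beside 77.8, 63.1 and 62.6 CPM, and it was 1 of the 4 libraries highest in muscle markers; without those 4 libraries the ZT0 difference went from -0.09 to 0.09 on the log2 scale. The part of muscle RNA in that value was not tested.

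Counted together, 1 of the 4 genes was called in the interaction, no larger a share than the 32.7% of all genes, and 1 each at ZT0 (11% of all genes), ZT6 (15.3%) and ZT18 (9.21%), none at ZT12 (12.4%) and none in the mean of the 4 times (0%). Thra alone carried the calls at ZT6 and ZT18 and Dio1 the call at ZT0. The comparisons at the 4 times use different mice, but the interaction, the rhythm difference and the steps within a photoperiod reuse the same libraries and are not independent of them.

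The genes most like each member by Pearson's r over the 8 group means, among 11549 named genes with a mean of at least 1 CPM, were few for 3 of them. For Dio1 they were Flt4 (0.953), Ucp2 (0.948) and Cln8 (0.940), with 9 genes above 0.9. For Thra they were Lgals9 (0.989), Stx4a (0.986) and Lonp2 (0.986), with 215 genes above 0.9. For Thrb they were Eif4ebp2 (0.983), C1qtnf1 (0.973) and Fam102b (0.971), with 36 above 0.9, and for Slc16a10 Mad2l1 (0.951), Chic2 (0.916) and Ifrd1 (0.914), with 3 above 0.9. These values describe 8 points that share their libraries, and for Thrb and Slc16a10 they follow group means whose differences did not pass any test. Among the members themselves r lay between -0.587 (Thra with Thrb) and 0.356 (Dio1 with Slc16a10).

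Other genes of thyroid hormone handling were examined in lists of transporters, selenoprotein synthesis, receptor partners, cofactors, binding proteins, conjugating enzymes and hormone-responsive genes, 52 genes of which 50 were tested. In the photoperiod by ZT interaction, edgeR called 27 of the 50, or 54%, against 32.7% of all genes. None of the 50 was called in the mean of the 4 times. At ZT0, 10 were higher and 2 lower in SL, where 6.07% and 4.97% of all genes were called in those directions. At ZT6, 7 were higher and 3 lower (6.9% and 8.38% of all genes), at ZT12 3 and 8 (6.05% and 6.4%), and at ZT18 2 and 6 (4.82% and 4.39%), so the higher calls outnumbered the lower ones at ZT0 and ZT6 and the reverse held at ZT12 and ZT18. The medians of their log2 differences were 0.15, 0.03, -0.07 and -0.03, where the medians over all tested genes were 0.00, -0.01, -0.01 and 0.01. The lists were drawn up with earlier results of these data known, and their share is a description.

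Of the 10 other hormone transporters, 6 were called in the interaction, beside 32.7% of all genes. Slc17a4, a transporter of thyroid hormones and organic anions, had the smallest interaction p of them (adjusted p = 5.94e-07 by edgeR) and was lower in SL at ZT0 (1.39-fold) and ZT6 (1.41-fold) and higher at ZT12 (1.51-fold) and ZT18 (1.40-fold). Slc7a8, the light chain LAT2, had an interaction adjusted p of 0.00317 and was 1.73-fold higher in SL at ZT18. The heavy chain Slc3a2 (0.0229) was 1.20-fold higher in SL at ZT12. Its interaction call was lost without the filter on low counts (adjusted p = 0.168 by edgeR) and without the 4 libraries highest in muscle markers (0.061).

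Of the 6 genes that make or insert selenocysteine, on which translation of Dio1 depends, 3 were called in the interaction, beside 32.7% of all genes. The elongation factor Eefsec (adjusted p = 0.0018 by edgeR) was 1.28-fold higher in SL at ZT0. The selenophosphate synthetase Sephs2 (0.00134) was 1.19-fold higher in SL at ZT0 and 1.17-fold lower at ZT12. Sepsecs, which makes selenocysteine on its tRNA (0.0368), was not called at any single time. Its interaction call was lost without the filter (0.214) and without the 4 muscle-marker libraries (0.132). The Sepsecs call was also lost in 10 of the 32 fits that each left out 1 library. Dio1 was also called higher in SL at ZT0 (2.98-fold), as were 6.07% of all genes, and its call rested on single mice. A link between these genes and Dio1 was not tested.

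Of the receptor partners, corepressors and coactivators, 0 of 3, 2 of 6 and 3 of 6 genes were called in the interaction, beside 32.7% of all genes. None of the 3 retinoid X receptors was called in the interaction, the nearest being Rxra (adjusted p = 0.0863 by edgeR, with 0.0429 in the 24 h rhythm difference). Of 6 corepressor genes, 2 were called: the deacetylase Hdac3 (0.00281) was 1.18-fold higher in SL at ZT0 and 1.22-fold lower at ZT12, and Tbl1xr1 (0.027) was 1.34-fold higher at ZT6. Of 6 coactivator genes, 3 were called: Med1 (0.000465) was 1.20-fold higher in SL at ZT6 and 1.23-fold lower at ZT18, Ncoa3 (0.00305) was 1.33-fold lower at ZT18, and Crebbp (0.0413) was called at no single time. Leaving out the 4 muscle-marker libraries ended the interaction calls of Tbl1xr1 (0.0599) and Crebbp (0.19). The calls were also lost in 6 (Tbl1xr1) and 14 (Crebbp) of the 32 fits that each left out 1 library. Without the filter on low counts the Crebbp call was lost as well (adjusted p = 0.0899 by edgeR).

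Among the 4 carriers and binding proteins, Serpina7, the thyroxine-binding globulin that the liver secretes, had an interaction adjusted p of 0.00236 by edgeR. It was 2.04-fold lower in SL at ZT6, at 36.8 ± 10.1 CPM against 75.3 ± 13.7 in LL (SD, n = 4). Thra was also called lower in SL at ZT6 (1.85-fold), as were 8.38% of all genes. A link between Serpina7 and Thra was not tested. Crym, a cytosolic T3-binding protein (0.0146), was called at no single time, and its interaction p was 0.104 without the 4 muscle-marker libraries. All 3 conjugating enzymes, which mark the hormones for excretion, were called in the interaction, beside 32.7% of all genes. Sult1a1 (adjusted p = 3.05e-05 by edgeR) was 1.30-fold lower in SL at ZT0, 1.42-fold higher at ZT6 and 1.36-fold lower at ZT18. Sult1b1 (0.0374) was 1.29-fold lower at ZT12, and Ugt1a1 (0.00455) was called at no single time. Ugt1a1 shares its last exons with the other Ugt1a genes, so its counts are uncertain. Sult1b1 had an interaction adjusted p of 0.101 by edgeR without the 4 muscle-marker libraries. The Sult1b1 call was also lost in 12 of the 32 fits that each left out 1 library.

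Of 12 liver genes that thyroid hormone is known to induce or repress, 8 were called in the interaction, beside 32.7% of all genes. Thrsp (Spot 14), the classical lipogenic target, was 3.15-fold higher in SL at ZT0 and 2.28-fold higher at ZT6, then 2.56-fold lower at ZT12 and 3.19-fold lower at ZT18 (interaction adjusted p = 2.99e-10 by edgeR). Cpt1a, which admits fatty acids to mitochondria (1.86e-07), and Pck1, which starts gluconeogenesis (8.35e-07), were also higher in SL at ZT0 and ZT6, Cpt1a by 1.47- and 1.66-fold and Pck1 by 1.85- and 2.16-fold. Both were lower at ZT12, by 1.46- and 2.47-fold.

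At ZT0, where Dio1 was called higher in SL, 5 of the 12 hormone-responsive genes were called higher in SL and 0 lower, against 6.07% and 4.97% of all genes. Dio1 was not called at the other times. There, 4 of the 12 were called higher and 1 lower at ZT6 (6.9% and 8.38% of all genes), 1 higher and 5 lower at ZT12 (6.05% and 6.4%), and 0 higher and 3 lower at ZT18 (4.82% and 4.39%). None of the 12 was called in the mean of the 4 times, and neither was Dio1. The list holds both induced and repressed genes, so these counts give no direction of hormone action. Thyroid hormone levels were not analysed here. A part of Dio1 in these calls was not tested.

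**Figure D5:**
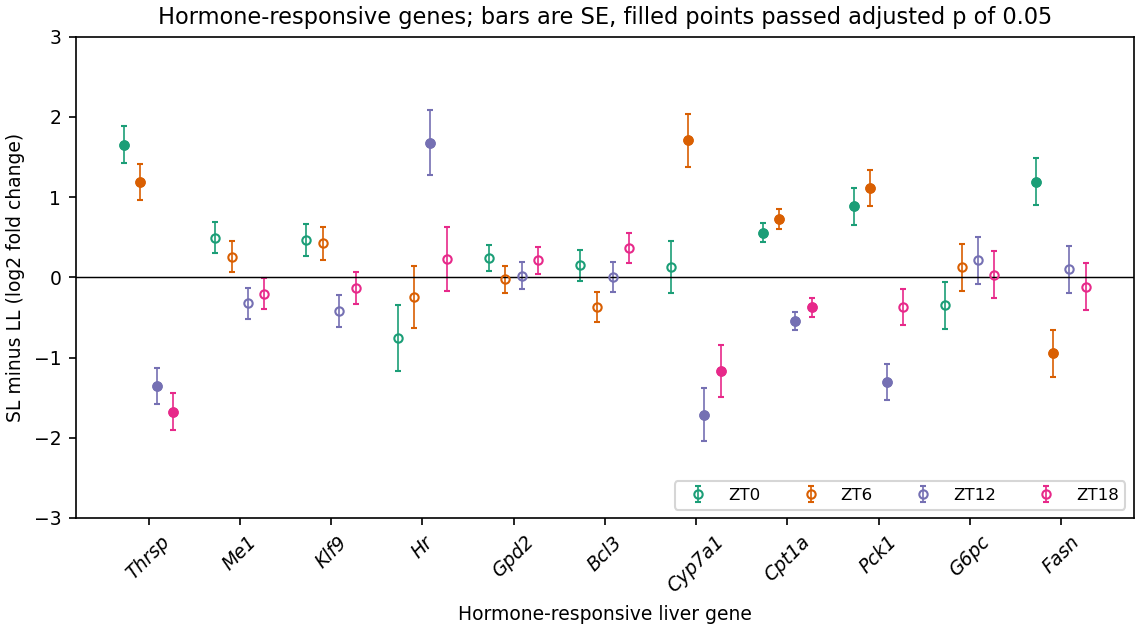
SL minus LL difference of 11 of the hormone-responsive liver genes as a log2 fold change (vertical axis) at each zeitgeber time; points are edgeR estimates from 4 mice per group, bars are SE and filled points passed an adjusted p of 0.05. Thrsp, Cpt1a and Pck1 are higher in SL at ZT0 and ZT6 and lower at ZT12, and 5 of these genes have no filled point.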

How the data were processed

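The submitters' processing notes name featureCounts 1.6.2, STAR 2.7.2b and bcl2fastq 2.20.0, and GRCm38 (mm10). Neither their roles, nor the strandedness chosen for counting, nor its gene models are stated there. The authors deposited unnormalized whole-number counts of reads for each gene and a table of log2 values for 13432 genes. The largest departure of those log2 values from log2 CPM recomputed from the counts was 0.0213, and they served only as an alternative. Symbols came from that table or, for genes without one there, from a reference list of gene names. Gene bounds and sequences came from GENCODE M21 on GRCm38.

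Counts were scaled by trimmed mean of M values (TMM) factors, filtered with filterByExpr by group, and tested in R 4.3.3 with edgeR 4.0.16 (quasi-likelihood F-test). A single fit of the 8 group means over all 32 libraries served every comparison, so comparisons share libraries and 1 estimate of the spread. Benjamini-Hochberg adjustment ran over the 14456 tested genes, and a gene was called at an adjusted p under 0.05. RPKM used the union of annotated exons, and log2 CPM a prior count of 2. Amplitudes and peaks come from a 24 h cosine wave on the contrasts ZT0 minus ZT12 and ZT6 minus ZT18. Ratios, fold changes and intervals come from the same fit, except the receptor ratio, taken per liver. The fits were tested on simulated data.

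Alternatives were DESeq2 1.42.0 size factors, TMM without mitochondrial and the 20 most abundant genes, DESeq2, limma-voom and limma 3.58.1 on the log2 table, no filter, a stricter filter (1 CPM in 16 libraries), fits on the compared groups only, the replicate number as a block, each library left out, and 4 libraries high in skeletal muscle markers left out. Replicate numbers of the labels did not pair the mice. All 48 pairs of group mates differed by more than counting noise. Per list of pathway genes, the rule takes every gene called in the interaction or the mean of the 4 times, or the 4 with the smallest interaction p where there were more, and the 3 genes most like each member. Of the genes it takes, 1 transporter and 1 hormone-responsive gene are not reported here by name; counts cover every listed gene. Members, lists and the 12 h offset were chosen with earlier results of these data known. Depth of 9095615 to 27462776 counts set the precision. The count of columns not matched to a sample was 0.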

Additional observations from a re-analysis of the deposited data

Results flagged for a closer look

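Single livers were flagged in 3 of the 40 groups of 4 values checked for the members and Nr1d1. The check set the gap of the extreme value to its nearest neighbour against the group's range (Dixon's test, 95%). It used rounded CPM, and chance gives about 1 in 20 groups. Thrb in LL ZT12 replicate 3 was 34.1 CPM with the others at 72.7 to 75.3 CPM, and this was also the library least correlated with its group mates (0.969). Thra in SL ZT0 replicate 3 was 14.1 CPM with the others at 17.2 to 17.3 CPM. Thra in SL ZT6 replicate 1 was 11.6 CPM with the others at 11 to 11.1 CPM, a gap of under 1 CPM in a narrow group.

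The effect of photoperiod differed between times of day for Thra, by the photoperiod by ZT interaction (adjusted p = 2.16e-08 by edgeR) and by the 24 h rhythm difference (6.19e-09). It also differed for the overlapping gene Nr1d1, with adjusted p of 2.28e-14 and 5.42e-15 in the same edgeR tests. Nr1d1 passed as well with the LL times taken 12 h later (0.00438), where Thra had 0.577; whether the 2 genes differ in this was not tested. Among the 50 pathway genes, 27 (54%) were called in the interaction, against 32.7% of all genes.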

How the results depend on the processing

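The members gave 384 results under alternatives other than leaving out 1 library, of which 369 kept their direction and side of the threshold, 5 passed it newly and 10 changed sign. All 5 new calls were of Dio1 without the filter on low counts: the mean of the 4 times 0.703 (adjusted p = 0.0437 by edgeR), ZT6 1 (0.026), the interaction 0.0155, the rhythm difference 0.00637 and time of day in SL 0.0456. The sign changes were of small differences, none called. Thrb at ZT0 (0.00) became -0.005 in the fit on compared groups only, -0.012 with limma on the authors' log2 values, -0.010 with limma-voom, -0.007 without the filter, -0.004 with the stricter filter and -0.037 without the 4 muscle-marker libraries. Leaving out those 4 also turned Dio1 at ZT18 to -0.172, Slc16a10 at ZT0 to 0.094 and Thrb at ZT18 to 0.029.

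Replicate numbers did not pair the mice: the deviations of same-numbered libraries correlated at -0.263 to 0.243 (mean -0.000292), and 5 of 32 libraries correlated best with their own number. With the number as a replicate block, Dio1 at ZT0 was 1.456 (adjusted p = 0.0183 by edgeR), Thrb at ZT0 -0.007, 28 pathway genes were called in the interaction, and no member's call changed.

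Leaving out each library in turn gave 1.148 to 1.834 for Dio1 at ZT0, -0.033 to 0.198 at ZT12, -0.23 to 0.506 at ZT18 and adjusted p of 0.0281 to 0.165 (edgeR) for its rhythm difference. Thra ranged from -0.131 to 0.047 at ZT12 and from -0.044 to 0 in the mean of the 4 times, Thrb from -0.102 to 0.078 at ZT0 and from -0.053 to 0.247 at ZT12, and Slc16a10 from -0.18 to 0.099 at ZT0. Genes called numbered 0 to 3 in the mean of the 4 times and 55 to 150 with LL taken 12 h later.

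Counts of called genes moved by over 1.5 times in few settings. With LL taken 12 h later (75 genes), DESeq2 called 228 and edgeR without the filter 250. In the mean of the 4 times (0 genes), DESeq2 called 6, edgeR without the filter 9 and without the 4 muscle-marker libraries 1. At ZT12 (1799) and for time of day in LL (2650) the fits on compared groups only called 723 and 1655, and at ZT18 (1331) leaving out the 4 libraries gave 446. The last 3 fits used fewer libraries, and the causes of these moves were not tested. Thra, with 130 to 650 counts per library, had the least depth of the members.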

Other observations

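Livers of one group that had more Dio1 tended to have less Thra. Over the 32 mice, deviations from group means of log2 CPM gave a Pearson's r of -0.492 (p = 0.00293, adjusted p = 0.0527) and a Spearman's rho of -0.5 (p = 0.00451, adjusted p = 0.0812), by a two-sided permutation test with 100000 shuffles within groups and adjustment over 18 relations. Without the 2 mice farthest from the median in Dio1, r was -0.476. The relation was chosen for mention after the values had been seen, and it did not pass the adjustment. Among the other relations of Dio1, the one with Hr had r = 0.375 (p = 0.0732, adjusted p = 0.51, same permutation test) and the one with Thrb r = -0.259 (adjusted p = 0.51, same permutation test).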
